A study of Drosophila melanogaster with 6 samples.

Results

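The vacuolar ATPase genes of Drosophila were taken as all genes whose current symbol starts with Vha. Of 33 such genes in the gene table, 31 had an array probe set assigned to exactly 1 gene, out of 11982 genes measured in this way, and each was read from its brightest probe set by mean log2 signal. Vha68-1 and Vha68-2, which encode the catalytic A subunit, had no such probe set and were not analysed here. The cells were of the S2 line, which was established from late fly embryos and resembles blood cells, and were grown in insulin-supplemented Schneider's medium with fetal bovine serum. They were given protocatechuic aldehyde (PA) at 0.1 mM for 2 h (3 samples) or vehicle alone (3 samples), and each sample was hybridized to 1 GeneChip Drosophila genome 2.0 array. The labels name no genotype beyond the S2 line and do not say what the vehicle was on the arrays. They also do not say whether the cultures of a group were grown and treated apart, so the p-values refer to the spread among these arrays, part of which may be technical. In bulk RNA of this kind fewer cells with a transcript and less transcript in each cell cannot be told apart.

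The vacuolar ATPase is a rotary proton pump of lysosomes, endosomes, secretory vesicles and some plasma membranes. Its cytosolic sector, V1, hydrolyses ATP, and the resulting rotation of a central stalk drives the membrane sector, V0, to carry protons into the lumen. In insects and yeast the sectors can come apart and reassemble, and in several species the pump serves as a docking platform through which amino acids in the lysosome are sensed by TOR. Most subunits of Drosophila are encoded by several genes. The array comparison can therefore answer which gene of each subunit gave signal in these cells, and whether the signals differed after PA.

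The values were MAS5 signals, linear intensities with 1 value per probe set and array. Each array had a mean of 500 after 2% of the values were trimmed from each end. With vehicle the median of the 18769 tested probe sets was 20.9 to 23.2. Vehicle arrays had a 75th percentile of 515 to 534 and PA arrays one of 492 to 495, while at the 99th percentile they had 10897 to 11239 and 11764 to 11913, so that the PA arrays were lower at the 75th percentile and higher at the 99th. The medians of the groups overlapped. Of 8 measured blood cell markers, 7 lay above the 75th percentile on all 3 vehicle arrays. With PA, NimC1 (log2 change 0.15, adjusted p = 0.0254 from limma) and Hml (0.14, adjusted p = 0.0427) were higher. The marker srp was lower (-0.15, adjusted p = 0.0467), and the other 5 did not pass. Probe sets with a mean log2 signal of 13 to 14 had a median change of 0.12 (quartiles 0.07 and 0.15). Hml, at 13.5, lay between these quartiles, so its rise is not distinguished from that of other probe sets as bright. At 12 to 13 the quartiles were 0.007 and 0.115, with NimC1 (12.3) above both and srp (12.4) below both. The markers were not tested under other processing. Of all probe sets above the 75th percentile, 17.2% passed. Of 18 germline, fat body, muscle and neuronal markers, 13 were measured. Of these 13, bam and elav lay above the array median on all 3 vehicle arrays. None of the 13 lay above the 75th percentile or passed the test between groups. Their mean vehicle signals ranged from 2.87 to 183, and their summed signal came to 415 to 457 with vehicle and 391 to 447 with PA.

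In vehicle-treated S2 cells the Vha genes fell into a bright group and a dim group with no gene in between. Above the 75th percentile on all 3 vehicle arrays lay 15 genes, with signals of 915 to 9191 on single arrays, between percentiles 81.7 and 98.7 of all probe sets. The other 16 genes had single-array signals of 0.663 to 45.8 with vehicle. At the limit of the array median, 16 genes counted as expressed, since Vha36-3 lay above it as well. Of the remaining 15, 9 were below the median on all 3 vehicle arrays and 6 were above it on some arrays only. Expressed means only this position. The germline marker bam and the neuronal marker elav had higher mean vehicle signals (105 and 183) than Vha36-3 (43.8), so its expression is not established. Signals of different genes come from different probes, so only the position on the array is compared here and not the amount of transcript.

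**Figure D1:**
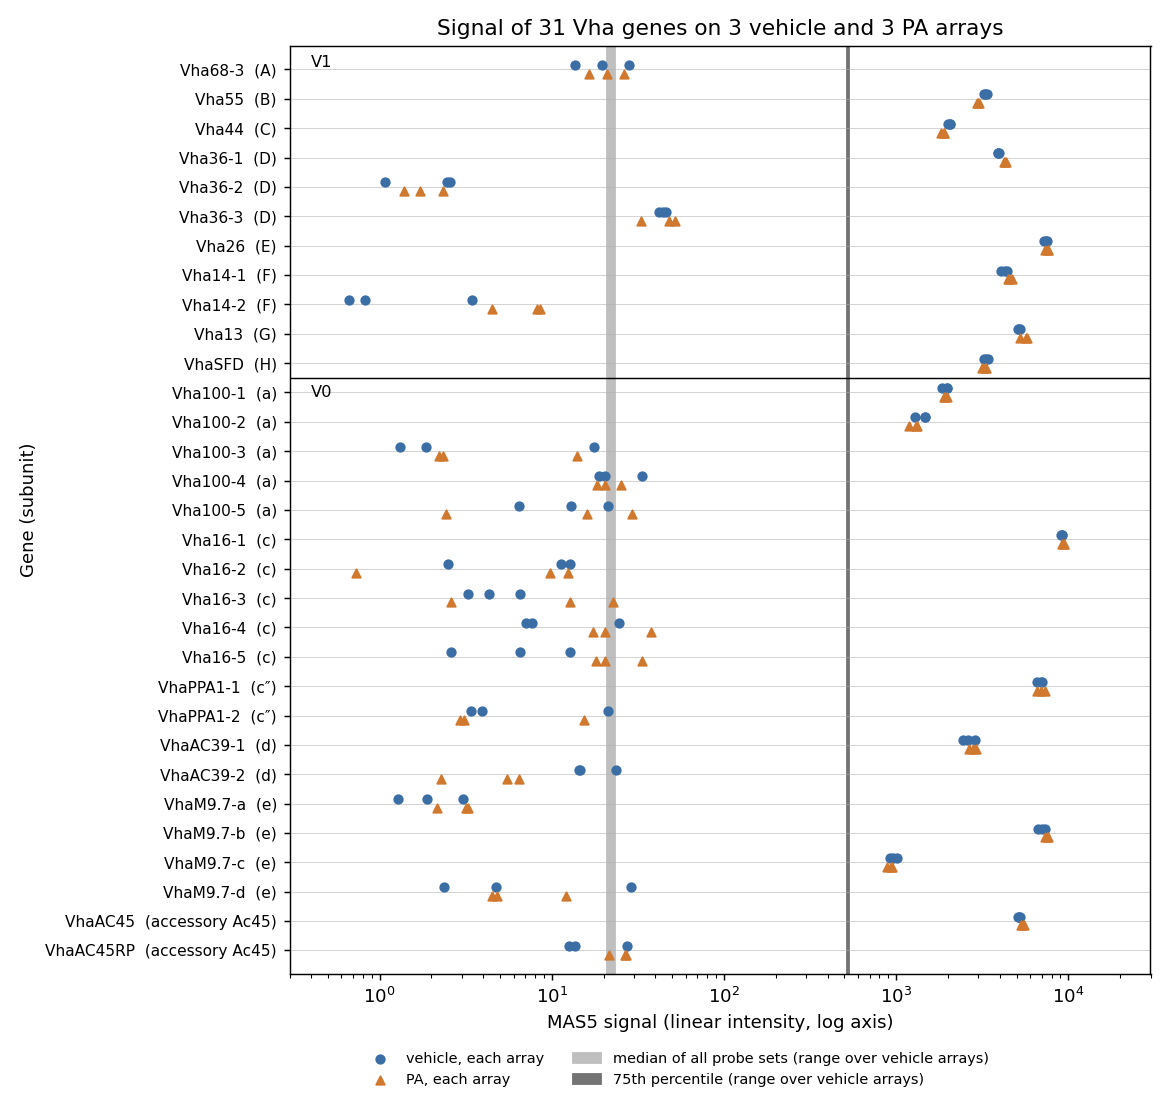
MAS5 signal (log axis) of each of the 31 Vha genes on the 3 vehicle arrays (circles) and the 3 PA arrays (triangles), grouped by sector and subunit, with the median and the 75th percentile of all tested probe sets as grey bands (range over the vehicle arrays). The 15 bright genes lie at 884 or more on every array and the 16 dim genes at 51.9 or less.

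By subunit, 8 of 14 classes were represented by several measured genes, 25 genes in all, and 10 of these genes were bright while 15 were dim. In 6 of the 8 classes exactly 1 gene was bright, and in the a and e subunits 2 genes were. The other classes had 1 measured gene each, and 5 of these 6 genes were bright, the exception being Vha68-3 of the A subunit.

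In the V1 sector, the head that hydrolyses ATP alternates A and B subunits. The only B subunit gene, Vha55, had signals of 3280, 3385 and 3228 with vehicle. Vha68-3, the third A subunit gene, had signals of 19.5, 13.6 and 28.2 with vehicle and of 16.5, 26.3 and 20.9 with PA, around the array median. Since the other A subunit genes were not analysed, the source of A subunit transcript in these cells is not shown here. In the gene table Vha68-2 and Vha68-3 are next to each other.

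The central stalk is built from the D and F subunits. Of the D subunit genes, Vha36-1 had signals of 3883, 3900 and 3980 with vehicle, whereas Vha36-2 had 1.07, 2.55 and 2.46. Vha36-3 was the brightest of the dim genes, at 45.8, 41.8 and 44.0 with vehicle and 48.1, 33.0 and 51.9 with PA. It is the one Vha gene between the array median and the 75th percentile. Of the F subunit genes, Vha14-1 was bright with a mean vehicle signal of 4237 ± 174 (SD, n = 3), and Vha14-2 was at 1.64 ± 1.55 (SD, n = 3).

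The stator, which holds the head still against the rotor, is formed by the C, E, G and H subunits, each encoded by 1 measured gene. All were bright. The mean vehicle signals were 2044 ± 36.7 for Vha44 (C), 7389 ± 145 for Vha26 (E), 5165 ± 67.6 for Vha13 (G) and 3311 ± 91.6 for VhaSFD (H), with SD over 3 arrays.

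In the V0 sector, the a subunit forms the path of the protons beside the rotating ring of c subunits. Of its 5 genes, Vha100-1, known in flies for a role at synapses, and Vha100-2 were bright. Vha100-1 had signals of 1966, 1977 and 1853 with vehicle. Vha100-2 had 1290, 1474 and 1461. Vha100-3, Vha100-4 and Vha100-5 stayed at 33.5 or less on every vehicle array. Vha100-4 is the immediate neighbour of Vha100-2 in the gene table and had signals of 20.4, 18.8 and 33.5, so that adjacent genes of 1 family lay on either side of the gap.

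The c subunits carry the protons through the membrane as the ring turns. Vha16-1 was the brightest Vha gene, with 9008, 9154 and 9191 on the vehicle arrays. The 4 other c subunit genes, Vha16-2 to Vha16-5, had mean vehicle signals of 4.71 to 13.1, and these means were below the array medians. On single vehicle arrays only Vha16-4 exceeded the median, with 24.5 on replicate 2, where the median was 23.2. The related c″ subunit showed the same split. VhaPPA1-1 had signals of 6922, 6555 and 7017 with vehicle, and VhaPPA1-2, with 1 gene between them in the gene table, had 21.2, 3.91 and 3.40.

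The d subunit couples the ring to the central stalk, e is a small membrane subunit, and Ac45 is an accessory glycoprotein with a part in assembly. For d, VhaAC39-1 had signals of 2889, 2431 and 2617 with vehicle, against 23.7, 14.3 and 14.5 for VhaAC39-2. For e, VhaM9.7-b had signals of 6635, 7302 and 6992, and VhaM9.7-c, at 915, 960 and 1007, was the dimmest of the bright genes. Both other e subunit genes were dim, VhaM9.7-a at 1.28, 1.88 and 3.06 and VhaM9.7-d at 2.38, 4.74 and 29.0. For Ac45, VhaAC45 was bright at 5176 ± 44.5 (SD, n = 3), and VhaAC45RP was dim at 12.5, 13.6 and 27.3.

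After PA, 1 of the 31 Vha genes passed the test. Vha55, the B subunit, was lower by 9.52%, and the other 30 genes did not pass in either direction. Over all tested probe sets, limma called 5.1% (2.29% higher and 2.82% lower, at an adjusted p under 0.05). Among probe sets above the median on all 3 vehicle arrays it called 11.2% (4.99% higher and 6.2% lower), against 1 of the 16 Vha genes there, and above the 75th percentile 17.2% (8.34% higher and 8.9% lower), against 1 of 15. The count is thus not above that of other probe sets of these ranges. At an unadjusted p under 0.05, 7 of the 15 bright genes had a difference, where 42.6% of all probe sets above the 75th percentile and 17.0% of all tested probe sets had one.

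Vha55 had signals of 3280, 3385 and 3228 with vehicle and of 3013, 2974 and 2964 with PA, so that every PA array lay below every vehicle array. The mean went from 3298 ± 80.0 to 2983 ± 25.7 (SD, n = 3 each). The log2 change was -0.14 (standard error 0.04, 95% interval -0.22 to -0.07, adjusted p = 0.0346 from limma), and the 2-sided exact permutation test gave p = 0.1, the smallest that 3 arrays against 3 allow. The direction was the same under every alternative run. The call was kept under 10 of 15 alternatives other than leaving out an array. It was lost with each array centred on its median (log2 change -0.22, adjusted p = 0.166) or on its 75th percentile (-0.06, adjusted p = 0.51), without a trend of the variance with signal (adjusted p = 0.535), with the sample number as a block (adjusted p = 0.0543), by the methods' t-test after adjustment, and when any array other than vehicle replicate 3 was left out (adjusted p = 0.0736 to 0.142 from limma). Its probe set carries the suffix _s_at, which marks probes that match several transcripts. The probe sets of 6 of the 15 bright genes carry it, the others being Vha44, Vha26, Vha100-1, Vha100-2 and VhaAC45. Whether such matches add to their signals was not tested.

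**Figure D2:**
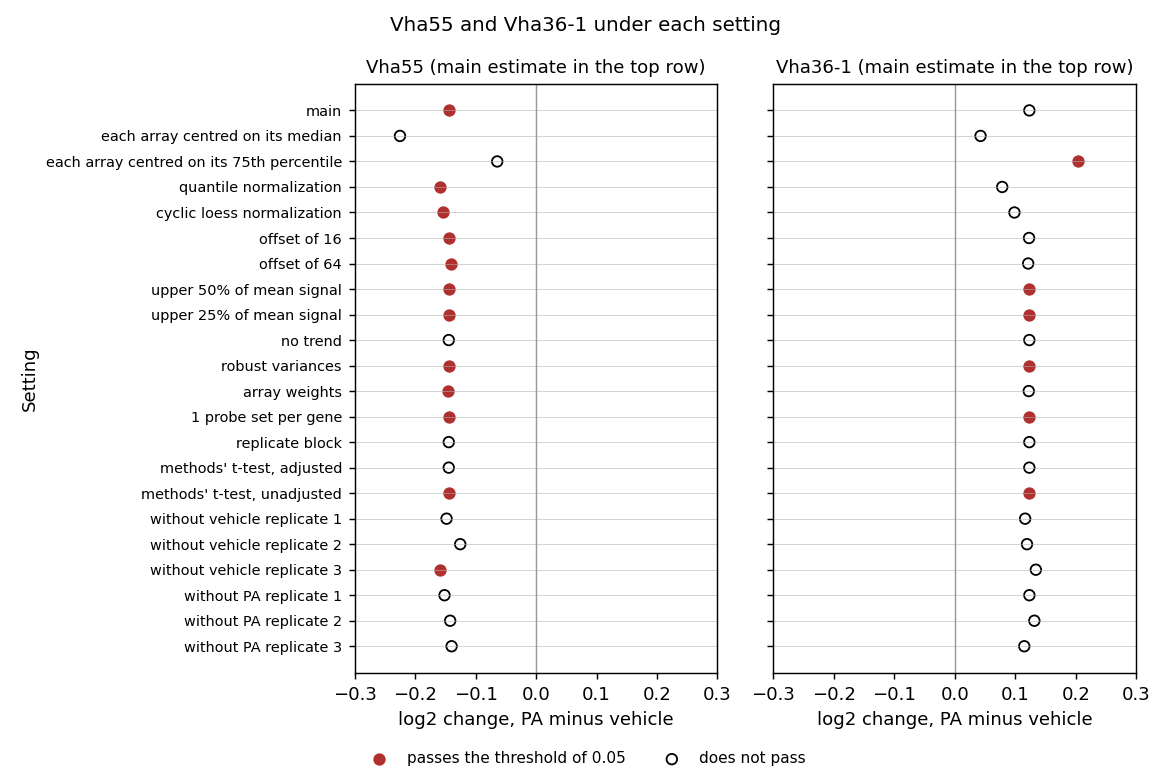
log2 change (PA minus vehicle) of Vha55 and Vha36-1 under the main setting (top row) and each alternative, with filled points where the value passes the threshold of 0.05. Vha55 is below 0 throughout, from -0.22 to -0.06, and Vha36-1 above 0 throughout, from 0.04 to 0.20, while both lose or gain the call with the setting.

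Among the other V1 genes, Vha44 had a value of the same sign as Vha55, and Vha36-1, Vha14-1 and Vha13 of the opposite sign. For Vha36-1, the signals were 3883, 3900 and 3980 with vehicle and 4270, 4222 and 4321 with PA. The groups did not overlap, and the log2 change was 0.12 (standard error 0.03, 95% interval 0.05 to 0.20), just short of the threshold at an adjusted p = 0.0539. With the test run on 1 probe set for each gene, its adjusted p was 0.0419, and after quantile normalization 0.238. Vha44 had 2002, 2068 and 2063 with vehicle and 1831, 1896 and 1908 with PA, also without overlap, with a log2 change of -0.12 (95% interval -0.21 to -0.04, adjusted p = 0.103).

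Vha14-1 had 4280, 4045 and 4385 with vehicle and 4518, 4464 and 4689 with PA. Vha13 had 5223, 5091 and 5182 with vehicle and 5224, 5655 and 5774 with PA, where the lowest PA array was barely above the highest vehicle array. Neither passed, with log2 changes of 0.11 (adjusted p = 0.164) and 0.10 (adjusted p = 0.192). Vha26 and VhaSFD had overlapping groups and values of 0.03 and -0.03. The sign of Vha26 turned negative with each array centred on its median and after quantile or cyclic loess normalization, and that of VhaSFD turned positive with centring on the 75th percentile.

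None of the 8 bright V0 genes passed. The value farthest from 0 was that of Vha100-2, with 1290, 1474 and 1461 for vehicle and 1322, 1308 and 1186 for PA, a log2 change of -0.15 (95% interval -0.27 to -0.02, adjusted p = 0.213). Its groups overlapped through the lowest vehicle array. VhaM9.7-b had 6635, 7302 and 6992 with vehicle and 7566, 7584 and 7284 with PA, overlapping by its second vehicle array, and a value of 0.10 (adjusted p = 0.187).

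VhaAC45 was the one bright V0 gene whose groups did not overlap, with 5125, 5194 and 5208 for vehicle and 5327, 5357 and 5491 for PA. The difference was small, a log2 change of 0.06 (95% interval -0.01 to 0.13, adjusted p = 0.418), and negative with centring on the median. Vha16-1 had 9482, 9437 and 9154 with PA, a value of 0.04, and its other probe set, with an adjusted p = 0.322, gave 0.10. The value of 0.04 turned to -0.043 with centring on the median, and to -0.067 and -0.040 after quantile and cyclic loess normalization. VhaAC39-1 (0.08), VhaPPA1-1 (0.02), Vha100-1 (-0.003) and VhaM9.7-c (-0.06) all had overlapping groups, and each changed sign under at least 1 of the alternatives. Vha100-1 lay closest to 0, with signals of 1891, 1930 and 1962 under PA and a 95% interval of -0.09 to 0.09.

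**Figure D3:**
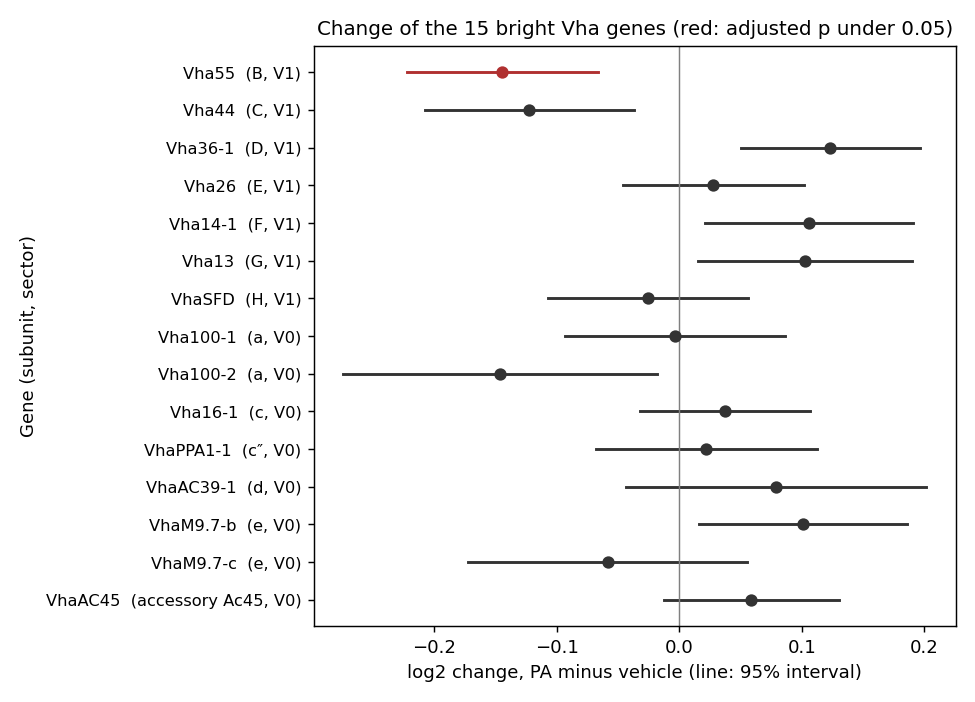
log2 change (PA minus vehicle, horizontal axis) of the 15 bright Vha genes, as the limma estimate with its 95% interval, for 3 PA and 3 vehicle arrays. Only Vha55, in red, has an adjusted p under 0.05, and the intervals of all 15 genes lie between -0.27 and 0.20.

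Over the 15 bright genes, the estimates ran from -0.15 to 0.12, with 9 above 0 and 6 below. Their median log2 change was 0.03, while that of all tested probe sets was -0.01 and that of probe sets above the 75th percentile -0.02. For the 16 genes above the array median the median was 0.02, beside -0.04 for all 8455 probe sets above it. This median of the Vha genes became negative with each array centred on its median (-0.056), which moves the median of all probe sets to -0.09, and after quantile (-0.024) or cyclic loess (-0.0058) normalization, and was 0.11 with centring on the 75th percentile, which moves the median of all probe sets to 0.07. The outermost bounds of the 95% intervals correspond to 0.827-fold and 1.15-fold of the vehicle level. Standard errors were 0.03 to 0.06 for these genes. The groups did not overlap for 6 of the 15, 4 higher and 2 lower with PA. In V1 it was 5 of 7 genes and in V0 1 of 8, a difference that was not tested. Among all probe sets above the 75th percentile, 45.4% did not overlap (20.7% higher and 24.7% lower), and among all tested probe sets 21.5% (9.61% higher and 11.9% lower).

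The bright genes were also set beside all probe sets of like signal level. All 7 genes with a mean log2 signal of 12 or more (a signal of 4096) had a positive value, with a median of 0.06, and 6 of the 8 below it had a negative value, with a median of -0.04, the exceptions being VhaAC39-1 and Vha36-1. The 702 probe sets of the array with a mean log2 signal of 12 to 14 had a median change of 0.09, and the 3862 probe sets of 9 to 12 one of -0.04. In bins of 1 log2 unit, 9 of the 15 genes lay within the middle 50% of the probe sets of their bin. Vha55, Vha44, Vha100-2 and Vha16-1, the brightest Vha gene, lay below it, and Vha36-1 and VhaAC39-1 above it. For Vha55, in the bin of 11 to 12, the 871 probe sets had a median of 0.01 and their middle 50% ran from -0.06 to 0.07. The part of the signal level in the single values was not tested. After quantile and cyclic loess normalization, Vha55 had log2 changes of -0.16 and -0.15 (adjusted p = 0.0213 and 0.0317 from limma).

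**Figure D4:**
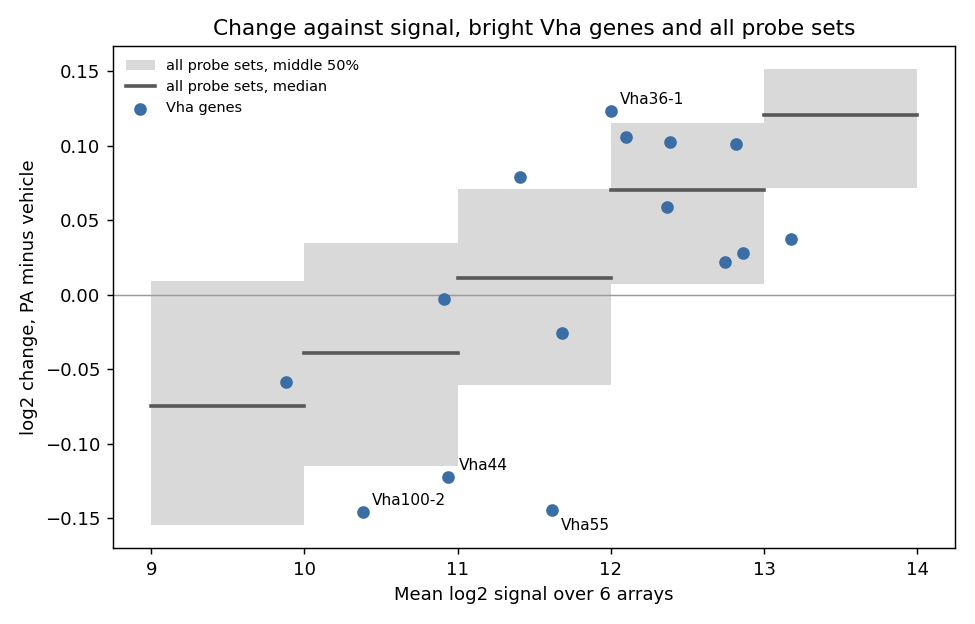
log2 change (PA minus vehicle) against the mean log2 signal over 6 arrays for the 15 bright Vha genes (points), with the median and the middle 50% of all probe sets in bins of 1 log2 unit. The bin medians go from -0.07 at 9 to 10 up to 0.12 at 13 to 14. Vha55, Vha44, Vha100-2 and Vha16-1 lie below the middle 50% of their bins, and Vha36-1 and VhaAC39-1 above it.

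The 16 dim genes did not pass the test either, and their intervals were wide. Standard errors were 0.30 to 1.14 on the log2 scale, so that changes of severalfold were not detectable for most of them. In 3 of the 16 the groups did not overlap, a share near that of all tested probe sets. Vha14-2, a second F subunit gene, had signals of 0.663, 3.43 and 0.828 with vehicle and 8.49, 8.23 and 4.50 with PA (adjusted p = 0.155). Vha16-5, of the c subunit, had 2.61, 6.55 and 12.8 with vehicle and 18.2, 20.4 and 33.4 with PA (adjusted p = 0.183). VhaAC39-2, of the d subunit, went the other way, from 23.7, 14.3 and 14.5 to 6.48, 2.26 and 5.52 (adjusted p = 0.194). Most of these values lie under the array medians, and no dim gene reached a signal above 51.9 with PA, so that the division into bright and dim genes was the same in both groups.

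The pump works within the lysosome, and of 45 other genes of lysosomes, of their traffic and of nutrient sensing on their surface, 35 were measured. In this list 3 were higher after PA, 0 were lower and 32 did not pass, where 24 of the 35 lay above the 75th percentile and 8.34% of all probe sets there were called higher and 8.9% lower. At an unadjusted p under 0.05 by the methods' t-test, 7 were higher and 3 lower, beside 6.57% higher and 7.78% lower (14.4% in all) of all tested probe sets. That share covers probe sets of every signal level, while most of the 35 genes were bright. By limma at an unadjusted p under 0.05, 42.6% of probe sets above the 75th percentile had a difference, against 17.0% of all tested probe sets. A share matched for signal level was not computed for the other test, so no excess can be read from its counts. The median change over the 35 was 0.03. CtsL1, a cathepsin L protease, had signals of 17894, 18355 and 18850 with vehicle and 21063, 20789 and 20436 with PA, without overlap, and a log2 change of 0.18 (adjusted p = 0.00638). Npc2b, of the family of sterol-binding NPC2 proteins, had a value of 0.15 (adjusted p = 0.0204) and cathD, the aspartic protease cathepsin D, one of 0.15 (adjusted p = 0.0282). All 3 are bright, with mean log2 signals over 12, and none was called after quantile or cyclic loess normalization, with centring on the median, or without a trend. With 1 array left out, CtsL1 was called in each case, Npc2b only without vehicle replicate 1 or 3, and cathD only without vehicle replicate 3. The call of cathD was also lost with an offset of 16 or 64.

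Below the threshold in the same list, ClC-b, a chloride channel family gene, had a value of -0.14 (adjusted p = 0.0583). Vps16A and Vps39, tethering subunits for fusion with the lysosome, had -0.20 and -0.32 (adjusted p = 0.0684 and 0.0839). Sap-r, the precursor of saposins, had 0.10 (adjusted p = 0.107), with a negative value after quantile normalization (-0.0055). Mitf, whose product in flies activates genes of the pump, had signals of 164, 170.5 and 143 with vehicle and 116, 142 and 147 with PA, which overlapped, and a value of -0.24 (adjusted p = 0.415). Rbcn-3B, a factor for assembly and activity of the pump, had -0.13 (adjusted p = 0.211).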

How the data were processed

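The authors hybridized RNA of S2 cells to GeneChip Drosophila genome 2.0 arrays and deposited MAS5 signals (intensity, linear scale, version not given in the sources used here). The table was checked to hold only values above 0, scaled alike on all 6 arrays, and was analysed as log2 signal, without an offset. Without 183 controls, 18769 of 18952 probe sets were tested. Symbols came from the platform annotation, brought to current ones through gene identifiers (13647 probe sets with 1 gene, 402 with several, 4720 unnamed here). PA minus vehicle was tested with limma 3.58.1 in R 4.3.3 (lmFit, eBayes with a trend), with Benjamini-Hochberg adjustment; every adjusted p comes from this fit unless another is named. The code was tested on simulated data. Exact permutation tests used scipy 1.17.1 in Python 3.11.15.

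All Vha genes measured are named; of the lysosome list, the called genes and 4 others with the smallest p. Mitf and Rbcn-3B were named after their values were seen. The members and lists were chosen with earlier results of these data known. The methods' t-test is Student's t-test, 2-sided, run on the same log2 values. The paper's list of changed genes also had limits on fold change, which were not applied to the counts by this test. Alternatives were other centrings and normalizations, offsets of 16 and 64, filters on mean signal, other variance models, 1 probe set per gene, the sample number as a block, the methods' t-test and leaving out each array. The number of arrays limits the precision. No genome build is named for the array, so no positions are given; neighbours are those of the release 6 gene table. Only the array data were analysed here.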

Additional observations from a re-analysis of the deposited data

How the results depend on the processing

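With each array centred on its median, 0 Vha genes were called higher and 0 lower, 0 genes of the lysosome list were called higher, and the median change of the expressed Vha genes was -0.056. With centring on the 75th percentile, Vha36-1, Vha14-1, Vha13 and VhaM9.7-b were called higher (4) and 0 Vha genes lower, 6 lysosome genes were called higher, and the median was 0.11. Over all probe sets, higher and lower calls were 429 and 529 as deposited, 58 and 350 with centring on the median, 988 and 211 with the other centring. Normalization by quantiles or cyclic loess left Vha55 called, with 0 lysosome genes higher and medians of -0.024 and -0.0058; they gave 504 and 517 calls over all probe sets, against 958. Offsets of 16 and 64 gave 653 and 539. In the upper 50% of mean signal 1 Vha gene was higher and 1 lower of 19 tested, and 2 lysosome genes were lower. There 1311 of 9384 probe sets were called. In the upper 25% 1 Vha gene was higher and 2 were lower of 15 tested, with 6 lysosome genes higher and 3 lower. The calls in that range were 1368 of 4692 probe sets, so these counts are not read as an excess. With robust variances or 1 probe set per gene 1 Vha gene, Vha36-1, was higher, and in the latter 1 lysosome gene was lower. Calls over all probe sets were 925 of 18769 with robust variances and 828 of 11982 with 1 probe set per gene. Without a trend, 0 Vha genes were lower and 0 lysosome genes higher (7 calls over all probe sets). The methods' t-test gave 0 and 0 of these after adjustment (38 calls over all probe sets, or 2694 unadjusted), and unadjusted 3 Vha genes higher and 3 lower, with 7 and 3 lysosome genes.

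The sample number as a replicate block left 0 Vha genes lower (Vha55 at an adjusted p = 0.0543) and 1 lysosome gene lower, with 943 calls in all. Across probe sets, the residuals of same-numbered arrays correlated at -0.0011, 0.019 and -0.0016. Those of differently numbered arrays correlated at -0.017 to 0.018. Dim genes had far larger standard errors than bright ones, so this check may miss pairing among bright probe sets. Whether the numbers mark pairs was left undecided, and the main test did not use them. Leaving out 1 array gave 0 to 1 Vha genes lower, 0 higher, and 1 to 3 lysosome genes higher, with 480 to 814 calls over all probe sets. For the 15 bright genes, 16 of 226 values under the other alternatives changed sign and 5 of 90 with an array left out; none of these was called. At the limit of the 75th percentile 15 genes counted as expressed instead of 16. Dim signals limit the precision of the 16 dim genes.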

Other observations

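A pair of genes whose older names began with Vha lie outside the rule used here and were named after their values were seen. ATP6AP2, an accessory subunit of the pump that is also known as the prorenin receptor, had signals of 4483, 4683 and 4586 with vehicle and 4615, 4696 and 4598 with PA. The groups overlapped, and the log2 change was 0.02 (95% interval -0.06 to 0.09, adjusted p = 0.888 from limma). CG5421, formerly VhaAC45-2, had signals of 1.56 to 3.11 with vehicle and 1.37 to 3.98 with PA, far below the array medians. ATP6AP2 thus lay among the bright genes and CG5421 among the dim ones.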
